A study of Sus scrofa with 63 samples.

Results

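GATA3, HOPX, HES1, DLX5 and CITED2, regulators of gene expression in skin, were followed in pig skin after sulfur mustard, an alkylating blister agent. They are 5 of the 6765 genes with 1 symbol on the array. They were picked by symbol with the differences between exposed and control sites already known, HES1, DLX5 and CITED2 because those differences pointed one way early and the other way later. Exposed minus control values of these genes are therefore given below as a description, with their spread and without a test, and nothing is supported with them. GATA3 had 4 probe sets (groups of array probes read out as 1 value) and each of the other genes had 1. For each gene the brightest probe set, by its mean across the 63 arrays, was used. All values are log2 signals, so a difference of 1 is a doubling, and levels of different genes are not set against each other.

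The epidermis renews itself from a basal layer whose cells stop dividing, move outward and form a barrier of keratins, lipids and crosslinked proteins. GATA3 is a zinc finger transcription factor that acts in barrier formation and hair follicle development and is also the lineage factor of T helper 2 cells. HOPX is a small homeodomain protein that does not bind DNA itself and is found in differentiating keratinocytes and in hair follicle stem cells. HES1 is a transcriptional repressor induced by Notch signalling, which drives basal keratinocytes toward the suprabasal layers. DLX5 is a homeodomain factor of skeletal and appendage development that responds to BMP signals. CITED2 binds the coactivators CBP and p300, is induced by hypoxia and competes there with hypoxia-inducible factors.

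Female Yorkshire crossbred pigs received 400 µL of neat sulfur mustard for 8 min on depilated abdominal skin, which gave lesions of 3 cm, and skin was sampled with an 8 mm punch 1, 2, 4, 24, 48, 72, 168, 336 or 514 h later. Each time is represented by 3 exposed, 3 control and 1 sham array. The design text assigns 4 animals to a time, of which 3 carried exposed as well as untouched control sites and the fourth went through the preparation without the agent, so a control site here is skin of an exposed animal. No group carried a genetic change, and each time is another set of animals.

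The 63 arrays had medians of 7.75 to 7.86, and precision is limited by how few arrays there were. Skin identity was visible in the 8 measured markers of differentiated keratinocytes, with mean levels of 10.64 to 12.65 in control sites. The punches also held skeletal muscle RNA in very unequal amounts. The mean level of the 18 measured muscle markers, called the muscle score below, ran from 7.22 to 13.55 over control sites. The scan dates of the arrays fell into 3 periods (1, 24 and 168 h, then 2, 48 and 336 h, then 4, 72 and 514 h). A single time is thus tied to a period, while the windows 1 to 4 h, 24 to 72 h and 168 to 514 h each span all 3. Control arrays of GATA3 averaged 10.89 ± 0.32 in the first of these periods and 9.93 ± 0.35 and 9.88 ± 0.40 in the others (SD, n = 9 each). Period and time cannot be told apart for levels, so differences between exposed and control sites are taken within a time. Ranges pooled over the times of a window span the 3 periods.

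The regulators followed 3 courses. GATA3 was lower in exposed skin from the first hour, furthest below control between 24 and 168 h and nearest to it at 514 h. HOPX differed from control by -0.24 to -0.09 until 4 h, by -2.90 to -1.80 from 24 to 168 h, and by -0.06 at 514 h. HES1, DLX5 and CITED2 were higher in exposed skin within the first hours and lower at 24, 48 and 72 h, and DLX5 was above control again at 514 h. At 1 h the exposed and control arrays of 3 of the 5 genes did not overlap, where 13.3% of all 23999 probe sets did not. The count was 3 of 5 at 2 h (9.59% of probe sets), 2 of 5 at 4 h (12.5%) and 5 of 5 at 24 h (40.5%). It was 4 of 5 in each of the groups of 48 h (24.7%), 72 h (26.5%) and 168 h (32.4%). In the groups of 336 h (25.8%) and 514 h (29.4%) it was 3 of 5. These counts restate the choice of the genes. A biopsy is a mixture, so fewer cells of a type and less RNA per cell cannot be told apart in any of these values.

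**Figure D1:**
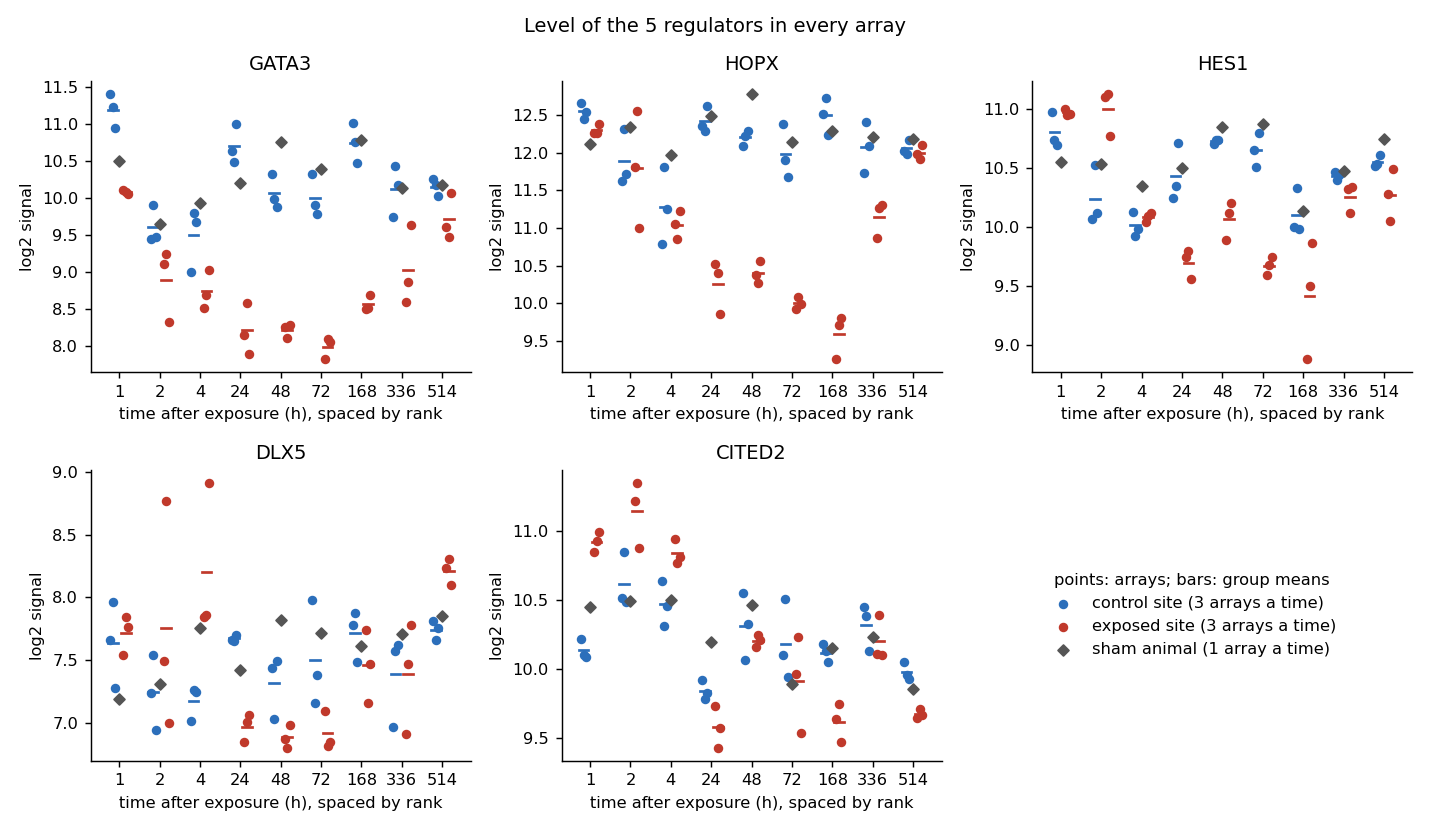
Log2 signal (vertical axis) of each regulator in all 63 arrays by time after exposure (horizontal axis, spaced by rank). Blue points are control sites, red points exposed sites, grey diamonds sham animals and bars the means of 3 arrays. GATA3 and HOPX of exposed sites lie below all control sites from 24 to 336 h, and CITED2 lies above them at 1, 2 and 4 h.

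GATA3 was already lower at the first time sampled. At 1 h its exposed arrays were at 10.11, 10.08 and 10.06 and its control arrays at 11.41, 11.23 and 10.94. The exposed arrays lay together and below every control array. The sham array of that time, at 10.50, was itself below the control arrays, and the exposed mean was 0.42 below it. At 24 h the exposed arrays had 8.15, 8.58 and 7.88 against 10.63, 10.49 and 11.01 in control sites, a difference of -2.51 ± 0.24 (SE, n = 3 and 3) or 5.68-fold. At 168 h they had 8.49, 8.51 and 8.69 against 11.02, 10.76 and 10.48. The difference at 168 h was -2.19, beside -1.85 and -2.02 at 48 and 72 h. At 336 h the exposed arrays spread from 8.59 to 9.64 and at 514 h they had 9.61, 9.47 and 10.07 against 10.26, 10.18 and 10.02. In that last group 1 exposed array had reached the control range and 2 had not.

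The remaining 3 probe sets of GATA3 had differences of the same sign. Over 24 to 72 h the probe set used had a difference of -2.13 ± 0.14 (SE, 9 exposed and 9 control arrays), and the others had -2.05, -2.04 and -0.56. The last of these was the dimmest, with a mean of 7.68. GATA3 also marks some T cells. Of the 12 measured T cell markers 3 rose over 24 to 72 h (limma, adjusted p below 0.05 over 23999 probe sets), where 18.2% of probe sets rose and 16.9% fell. None of the markers fell, also not at an unadjusted p below 0.05 in limma. The count of rises was 5 without exposed replicate 1 of 24 h, with quantile normalization again, with a block for replicate numbers and with the sham arrays as the control group. Their mean level was 7.23 to 8.67 in exposed and 7.09 to 8.10 in control sites.

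HOPX was much closer to control before 24 h than after it. At 1 h its exposed arrays, 12.27, 12.27 and 12.39, lay just below the control arrays, 12.66, 12.45 and 12.54, and above the sham array at 12.11. They had 11.82, 12.56 and 11.00 at 2 h against 11.62, 12.31 and 11.72 in control sites, and 11.05, 10.85 and 11.22 at 4 h against 10.79, 11.81 and 11.26. Exposed and control arrays were interleaved at both times. At 24 h exposed sites were at 10.52, 10.40 and 9.86 and control sites at 12.36, 12.29 and 12.62, a 4.49-fold difference. The widest gap came at 168 h, with 9.26, 9.71 and 9.80 against 12.52, 12.73 and 12.24, which is -2.90 ± 0.24 or 7.49-fold. At 336 h exposed sites had 10.86, 11.26 and 11.30, still below the lowest control array at 11.73. At 514 h they had 11.98, 11.92 and 12.11 against 12.03, 11.98 and 12.16, and the groups overlapped. The difference at that time was -0.06, with all 3 same-numbered pairs between -0.07 and -0.05.

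HES1 was higher at 2 h and lower from 24 h. At 2 h exposed sites were at 11.11, 11.13 and 10.77 and control sites at 10.07, 10.52 and 10.12, a difference of 0.77 ± 0.15 or 1.70-fold. Every exposed array was above every control array and above the sham array at 10.54. By 4 h the exposed arrays had 10.04, 10.10 and 10.12 against 9.93 to 10.13 in control sites, and the difference was 0.07. At 72 h they had 9.59, 9.68 and 9.74 against 10.66, 10.51 and 10.80, a difference of -0.98. At 1 h the difference had been 0.17, with exposed arrays of 10.96 to 11.01 that overlapped the control arrays of 10.70 to 10.98. At 168 h exposed sites ranged most widely, with 8.88, 9.50 and 9.87 against 10.00, 10.34 and 9.98. At 336 and 514 h the differences were -0.18 and -0.28, with exposed and control arrays just apart.

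The early excess of DLX5 was uneven between animals. Its probe set was dim, with a mean of 7.51 beside array medians of 7.75 to 7.86, which limits the reading of its sizes. At 2 h its exposed arrays had 7.50, 8.77 and 7.00 against 7.24, 7.54 and 6.94, and the second exposed array stood alone. At 4 h they had 7.84, 7.86 and 8.91 against 7.01, 7.26 and 7.25, and all 3 lay above the control sites. The difference of 1.03 ± 0.28 at 4 h was spread over pairs of 0.83, 0.59 and 1.66. At 24 h exposed sites had 6.85, 7.00 and 7.06 and control sites 7.66, 7.65 and 7.70, and at 48 and 72 h they were again below every control array. At 514 h DLX5 was above control again, with 8.24, 8.31 and 8.10 against 7.81, 7.66 and 7.75 and a sham array at 7.85. It was the only one of the 5 genes whose exposed arrays lay above all control arrays at 514 h.

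CITED2 was higher in exposed skin at all 3 early times. At 1 h exposed sites had 10.85, 10.92 and 10.99 against 10.21, 10.10 and 10.08, a difference of 0.79 ± 0.14 or 1.72-fold. The sham array was at 10.45, above the control arrays and below the exposed ones. The excess was 0.53 at 2 h and 0.37 at 4 h, where exposed sites had 10.94, 10.76 and 10.81 against 10.64, 10.31 and 10.45. From 24 h the sign was the opposite and the sizes were small. At 168 h exposed sites had 9.64, 9.75 and 9.47 against 10.18, 10.13 and 10.05, a difference of -0.50, and at 514 h 9.64, 9.71 and 9.67 against 10.05, 9.96 and 9.92. At 48, 72 and 336 h the groups overlapped.

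**Figure D2:**
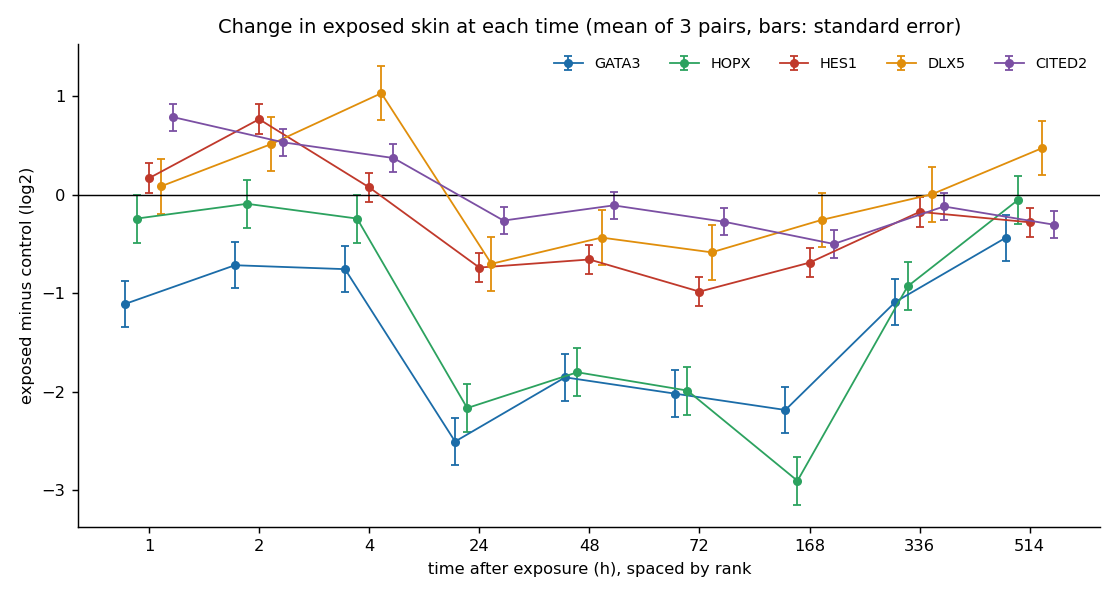
Exposed minus control difference (vertical axis, log2) of each regulator by time after exposure (horizontal axis, spaced by rank), as the mean of 3 same-numbered pairs with the standard error of the fit as bars. CITED2, HES1 and DLX5 have their highest values at 1, 2 and 4 h (0.79, 0.77 and 1.03), and GATA3 and HOPX lie between -2.90 and -1.80 from 24 to 168 h.

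Averaged over windows, GATA3 differed by -0.86, -2.13 and -1.24 (± 0.14 each) over 1 to 4 h, 24 to 72 h and 168 to 514 h. HOPX had -0.19, -1.99 and -1.30 (± 0.14), and was lower in 6, 9 and 9 of 9 pairs. The first of these values ran from -0.32 to -0.06 when single arrays were left out. HES1 had 0.34, -0.79 and -0.38 (± 0.09) and was higher in 8 of 9 pairs in the first window and lower in 9 of 9 in both later ones. DLX5 had 0.54, -0.57 and 0.07 (± 0.16), the last of these holding both signs, with 4 pairs higher and 5 lower. Against the sham arrays, or with the muscle score as a covariate, that last value was -0.04. CITED2 had 0.56, -0.22 and -0.31 (± 0.08) and was higher in 9 of 9 pairs in the first window. Of all probe sets 3.98%, 16.7% and 12.6% had the same sign in 9 of 9 pairs in the 3 windows.

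Cell type markers passed in the later windows, and over 1 to 4 h only 1 did, a basal keratinocyte marker. Of the 8 measured markers of differentiated keratinocytes, 7 fell over 24 to 72 h, as 16.9% of all probe sets did, with a median of -2.04 against 0.06 over all genes, and their mean level was 9.50 to 10.50 in exposed against 11.39 to 12.31 in control sites. SERPINB7, a keratinocyte serpin, fell by 3.17 and CALML5, a calcium-binding protein of the upper epidermis, fell by 3.12. Over 1 to 4 h, when GATA3 was lower and HES1, DLX5 and CITED2 were higher, none of the 8 passed (limma, 0 rose and 1 fell at an unadjusted p below 0.05), where 5.48% of probe sets did, 2.07% higher and 3.41% lower. Without the second exposed array of 2 h, 2 of the 8 fell. Their mean level over 1 to 4 h was 10.62 to 12.15 in exposed and 10.64 to 12.42 in control sites. These ranges pool 3 times of unlike control levels, so their overlap does not show an unchanged level. The median difference of these markers was -0.17 against 0.02 over all genes. At 1 h exposed sites had 11.99, 12.04 and 12.12 against 12.42, 12.42 and 12.05, and at 2 and 4 h exposed and control arrays were interleaved. Over 168 to 514 h 2 of the 8 rose and 5 fell, where 21.9% of probe sets passed in either direction. That window joins unlike times. At 168 h their mean level was 9.26, 9.48 and 9.63 in exposed against 12.49, 12.65 and 12.31 in control sites. At 336 h it was 11.62, 11.84 and 12.02 against 11.91, 12.36 and 12.12. At 514 h it was 12.77, 12.56 and 12.73 against 11.95, 11.89 and 12.01, so exposed sites were above every control array of that time. Of 5 basal keratinocyte markers 1, 3 and 2 fell in the successive windows. COL7A1, the anchoring fibril collagen, fell by 0.64 over 1 to 4 h and by 1.15 over 24 to 72 h. Over 168 to 514 h it did not pass, and the falls were those of DST by 0.72 and COL17A1 by 0.24. Without any 1 of 12 single arrays the late count of basal markers was 1.

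Markers of other cells were counted in the same way. Over all probe sets 18.2% rose and 16.9% fell over 24 to 72 h, and 12% rose and 9.88% fell over 168 to 514 h. Of 10 neutrophil and macrophage markers 9 rose in each of the later windows, their mean level being 9.44 to 10.82 in exposed against 8.04 to 9.37 in control sites over 24 to 72 h. Of the hair follicle and gland list only KRT8, KRT18, KRT19 and AQP5 were measured, and none of its hair keratins. All 4 rose over 168 to 514 h (1 of 4 against the sham arrays), which does not speak for hair follicle genes. Of the 18 muscle markers 1 fell over 24 to 72 h and 3 fell over 168 to 514 h, counts that ranged from 0 to 2 and from 0 to 11 without single arrays, and the first was 16 with the arrays of its window alone. Muscle scores ranged from 7.05 to 11.25 in exposed and from 7.22 to 13.29 in control sites over 168 to 514 h. Fibroblast markers had 1 rise and 4 falls of 8 over 24 to 72 h and 1 rise and 3 falls over 168 to 514 h, endothelial markers 2 rises and 2 falls and then 2 rises of 8, and adipocyte markers 7 falls of 8 in the last window. The shares of muscle and endothelial markers that passed were near or below those over all probe sets in some windows and are not read as a change of those cells. The adipocyte count was 0 against the 3 sham arrays. None of these 3 lists had a call over 1 to 4 h, and none had one at an unadjusted p below 0.05 in limma. The part of any of these cell types in the values of the 5 regulators was not tested.

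Sham animals had no part in the choice of the genes, and their difference from control sites was tested. The control arrays did have a part, as 1 side of the differences that chose the genes. The sham tests are therefore not wholly independent of that choice. None of the 5 regulators passed (limma over the 9 times), and none had an unadjusted p below 0.05, where 5 of 23999 probe sets, or 0.0208%, passed. In the single windows 0.0125%, 0.00417% and 0.00417% of probe sets passed. HOPX was 0.17 ± 0.11 higher in sham animals (adjusted p = 0.687) and HES1 0.12 ± 0.07 higher (adjusted p = 0.635). GATA3, DLX5 and CITED2 differed by 0.05 ± 0.11, 0.11 ± 0.13 and 0.03 ± 0.07, with adjusted p values of 0.938, 0.852 and 0.939. With 1 sham array a time the differences are bounded by these errors and are not shown to be nil.

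Control sites were then compared across the 3 windows, which asks whether the regulators moved in unexposed skin of exposed animals. The same control arrays had entered the differences that chose the genes, so this comparison is not wholly independent of the choice either. CITED2 was the one of 5 that passed the F test (limma, adjusted p = 0.0436), where 2.6% of probe sets did. Its control arrays had means of 10.41 ± 0.25, 10.11 ± 0.29 and 10.14 ± 0.18 (SD, n = 9 each) in the 3 windows. The fall from the first window was 0.29 ± 0.08 to 24 to 72 h (adjusted p = 0.0481, passed by 1.51% of probe sets) and 0.27 ± 0.08 to 168 to 514 h (adjusted p = 0.0704, 1.57%). By window mean CITED2 was thus highest over 1 to 4 h in both kinds of site, 10.76 to 11.34 in exposed and 10.08 to 10.85 in control arrays. The exposed values are among those it was chosen for. Its control means were 10.13, 10.62 and 10.47 at 1, 2 and 4 h and 9.84 to 10.32 at later times, so 1 h did not stand above them. The F test does not count the spread between times of a window. The call was lost in 19 of 54 fits without 1 exposed or control array, all 19 of them control arrays, with an adjusted p of 0.0164 to 0.104. HES1 had means of 10.35, 10.61 and 10.37 in the 3 windows and an adjusted p of 0.116, which passed at 0.0497 without the first exposed array of 168 h. For HOPX, GATA3 and DLX5 the adjusted p was 0.288, 0.508 and 0.562. Animals, sacrifice days and times cannot be told apart in this comparison.

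**Figure D3:**
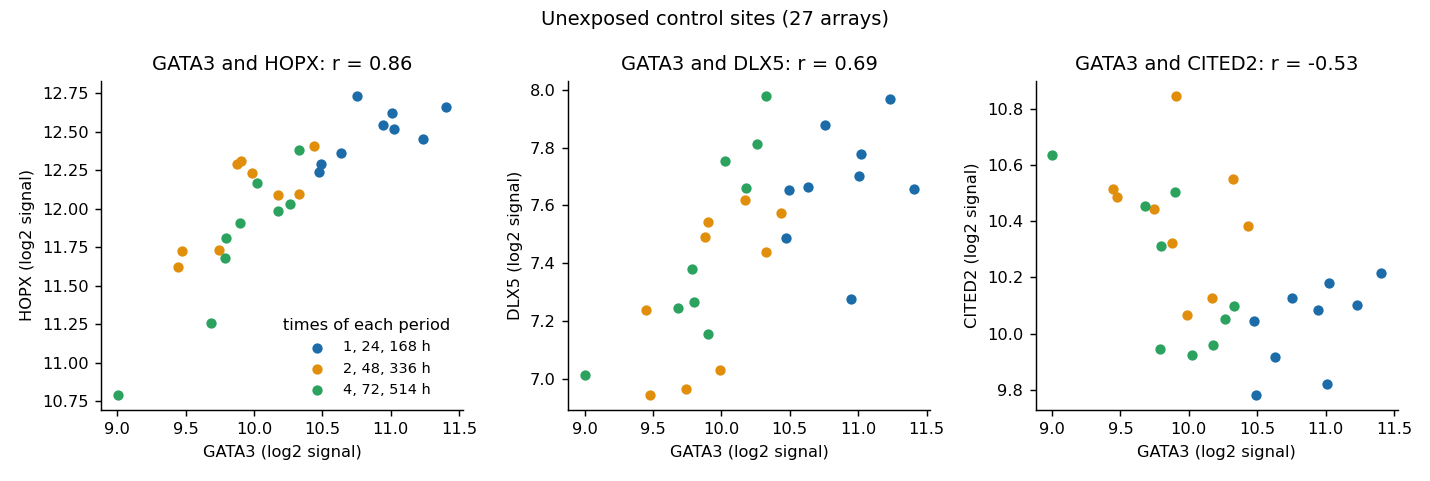
Levels (log2 signal) of HOPX, DLX5 and CITED2 on the vertical axes against GATA3 on the horizontal axes in the 27 control arrays, coloured by scan period. Within the periods r with GATA3 is 0.64, 0.76 and 0.94 for HOPX and 0.28, 0.65 and 0.86 for DLX5, past the threshold in the period of 4, 72 and 514 h alone, while for CITED2 the sign differs between periods (0.57, -0.22 and -0.72).

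Among the 27 control arrays GATA3, HOPX and DLX5 varied together. These arrays had also entered the differences that chose the genes. Their differentiated keratinocyte markers had mean levels of 10.64 to 12.65, and the part of epidermal content in the correlations was not tested. How many other gene pairs correlate as strongly was not counted. Within the 3 periods of 9 arrays GATA3 and HOPX correlated with Pearson's r of 0.64, 0.76 and 0.94. Over all control arrays r was 0.86 and Spearman's rho 0.90, each with a permutation p of 1e-05, the smallest that the resamples could give, and an adjusted p of 0.00015 over 15 relations. Centred on each time r was 0.78 (permutation test, adjusted p = 0.0142), and without the 2 arrays farthest from the median of GATA3 it was 0.82. GATA3 and DLX5 had r of 0.69 and rho of 0.73 (permutation test, p = 0.00015 and adjusted p = 0.00075 for r, adjusted p = 0.000375 for rho), 0.67 when centred on time and 0.67 without the 2 farthest arrays. HOPX and DLX5 had 0.66 and 0.68 (permutation test, adjusted p = 0.00075 and 0.0009), 0.60 when centred and 0.63 without the 2 farthest. These were the 3 of 10 pairs of regulators that passed when centred on time. Within single periods the 3 pairs passed in the period of 4, 72 and 514 h (exact permutation test, adjusted p = 0.00227 for GATA3 and HOPX) and not in the others.

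The other pairs did not pass when centred on time or within a period. GATA3 and HES1 had r of 0.73, 0.59 and 0.55 in the 3 periods, and HOPX and HES1 0.53, 0.69 and 0.61, positive throughout with none past the threshold. CITED2 had pooled r of -0.53, -0.46 and -0.52 with GATA3, HOPX and DLX5, which passed, but 0.10, -0.04 and -0.003 when centred on time. With HOPX it did not pass by rho (permutation test, adjusted p = 0.105) or without the 2 farthest arrays (adjusted p = 0.175). The pooled sign therefore rests on differences between times or periods. HOPX and HES1 had a pooled r of 0.44 (rho of 0.34, permutation test, adjusted p = 0.0303 and 0.118), and 0.29 without the 2 farthest arrays, where the relation no longer held. The muscle score went with lower GATA3, HOPX and DLX5, with r of -0.51, -0.53 and -0.60 (permutation test, adjusted p = 0.0136, 0.0113 and 0.00352), of which HOPX and DLX5 passed when centred on time, while GATA3 was lost without the 2 farthest arrays (adjusted p = 0.106). A signal is relative to the other RNA of its biopsy, which is common to all points. On residuals after the muscle score, 5 of the 10 pairs of regulators passed.

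Late lesions were scored by the submitters for completed re-epithelialization, the closing of the wound by new epidermis. Among the 9 exposed arrays of 168 to 514 h, 4 were closed (1 of 336 h and all 3 of 514 h) and 5 were open (all 3 of 168 h and 2 of 336 h). The score is thus tied to time and to scan period, and closing, time and period cannot be told apart. The levels come from exposed arrays whose course was known when the genes were chosen, so they are a description without a test. GATA3 was at 9.47 to 10.07 in closed and 8.49 to 8.86 in open lesions, a difference of 1.07. HOPX was at 11.30 to 12.11 and 9.26 to 11.26, a difference of 1.65, and DLX5 at 7.78 to 8.31 and 6.91 to 7.74, a difference of 0.75. For these 3 genes every closed lesion was above every open one, by little for HOPX (11.30 against 11.26) and DLX5 (7.78 against 7.74). How many of all probe sets separate in this way was not counted, so the order is not read as particular to these genes.

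HES1 was 0.56 higher on average in closed lesions, with overlap, at 10.05 to 10.49 against 8.88 to 10.32. With the same-numbered control array subtracted, its difference was 0.26. CITED2 differed by -0.09, and its ranges overlapped as well. Inside the 336 h group, the closed lesion had GATA3 at 9.64 against 8.59 and 8.86 in the open ones, DLX5 at 7.78 against 6.91 and 7.47, and HOPX at 11.30 against 10.86 and 11.26. The order there was the same for all 3 genes, with 1 closed animal and no test. Differentiated keratinocyte markers had a mean level of 12.02 to 12.77 in closed and 9.26 to 11.84 in open lesions, and basal markers 7.94 to 8.35 and 8.04 to 8.30. Hair follicle and gland markers, measured without hair keratins, were at 9.07 to 9.50 (median of 9.42) and 8.99 to 10.62 (median of 10.16). Neutrophil and macrophage markers were at 9.20 to 9.84 and 9.67 to 10.26, and the muscle score at 7.05 to 10.12 and 7.13 to 11.25. The part of these markers in the differences was not tested.

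**Figure D4:**
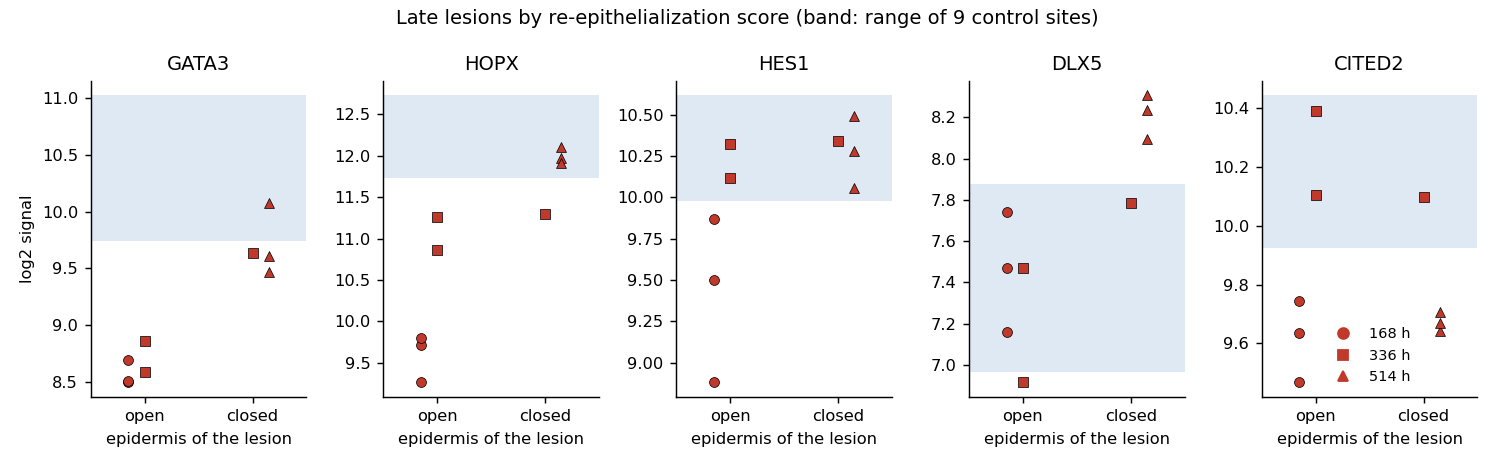
Log2 signal (vertical axes) of each regulator in the 9 exposed arrays of 168, 336 and 514 h, split by whether re-epithelialization was scored as open or closed (horizontal axes), with the range of 9 control arrays of these times as a band. All 4 closed lesions exceed all 5 open ones for GATA3, HOPX and DLX5, and HES1 and CITED2 overlap. The share of all probe sets with such an order was not counted.

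The pathways around these genes were read from lists, whose shares are set beside those over all probe sets, 5.48%, 35.1% and 21.9% in the 3 windows. HES1 belongs to Notch signalling, for which 13 of 43 listed genes were measured. Over 1 to 4 h, when HES1 was 0.34 higher, 1 Notch gene passed, the ligand JAG1, which fell by 0.26 ± 0.07 (limma, adjusted p = 0.0195). That call was lost without any 1 of 4 arrays (control replicate 1 of 1 h, control replicate 2 and exposed replicate 3 of 2 h, and control replicate 2 of 4 h), against the sham arrays and with the arrays of the window alone. Over 24 to 72 h 2 rose and 4 fell, with a list median of 0.03, and the shares called in the 3 windows, 7.69%, 46.2% and 15.4%, were not far from those over all probe sets. JAG1 fell by 0.49, HEY2, a Notch-induced repressor like HES1, fell by 0.28, and PSEN2, a subunit of the protease that releases the Notch intracellular domain, rose by 0.43. Against the sham arrays these counts were 1 and 1. Over 168 to 514 h HEY2 rose by 0.64 and PSEN2 by 0.36, while HES1 had -0.38. The probe set of HEY2 was dim, with means of 6.93 in exposed and 6.30 in control sites there. Array medians were 7.75 to 7.86, which limits the reading of its sizes.

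**Figure D5:**
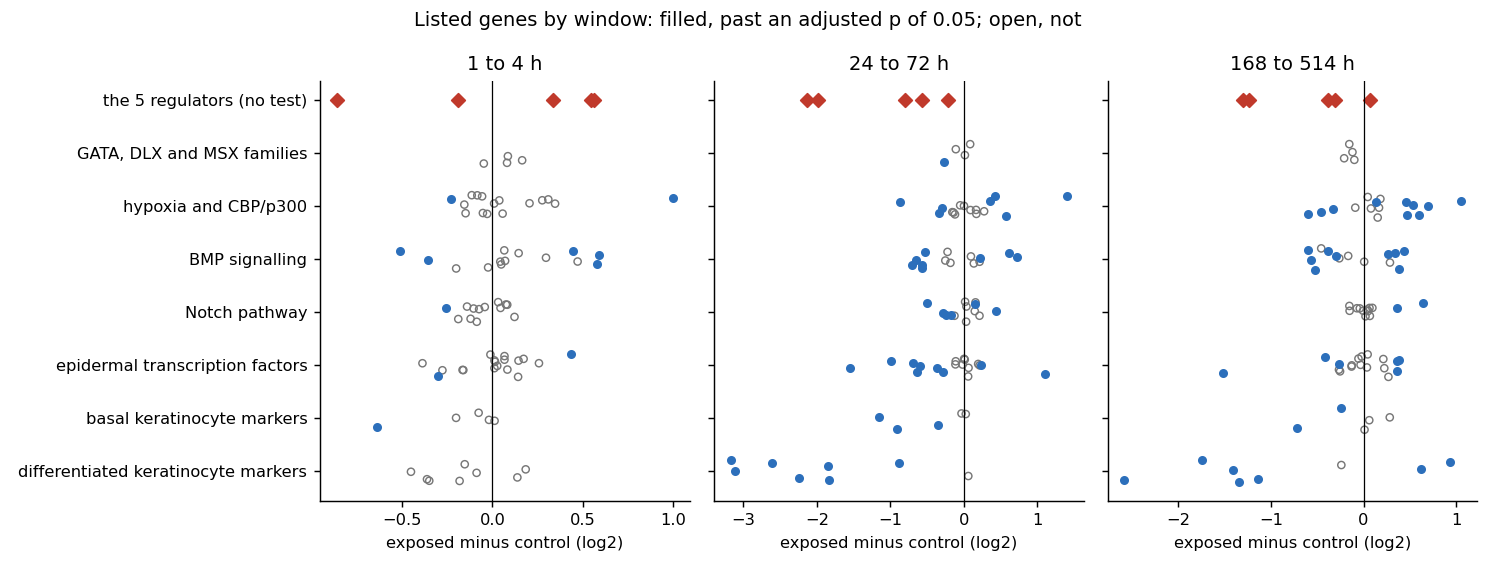
Exposed minus control difference (horizontal axes, log2) of the measured genes of 7 lists and of the 5 regulators, by window. Filled blue points passed an adjusted p of 0.05 over all probe sets, open points did not, and red diamonds are the regulators, which carry no test. Filled points number 7 of 8 for differentiated keratinocyte markers over 24 to 72 h.

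DLX5 responds to BMP signals, and 14 of 25 listed BMP genes were measured. The shares called were 35.7%, 57.1% and 64.3% in the 3 windows. Over 1 to 4 h 3 rose and 2 fell. The risers were the BMP-induced inhibitors of helix-loop-helix factors ID1 (0.59 ± 0.11, adjusted p = 0.000286), ID2 (0.58 ± 0.08, adjusted p = 7.12e-06) and ID3 (0.44), in the window in which DLX5 was 0.54 higher. The receptor BMPR1B fell by 0.51 ± 0.11 and the signal transducer SMAD1 fell by 0.36. None of these 5 passed against the 3 sham arrays. The probe sets of ID2 and BMPR1B were dim, with control means of 6.17 and 7.02 in this window. Over 24 to 72 h 3 rose and 5 fell, among them the receptors BMPR1A, which fell by 0.71, and BMPR1B, which fell by 0.65, while ID3 rose by 0.72. Over 168 to 514 h 4 rose and 5 fell (2 rose against the sham arrays), and the ligands BMP4 and BMP7 fell by 0.57 and 0.53 and the antagonist FST by 0.60. Of 13 listed relatives of GATA3 and DLX5 by family 4 were measured, GATA2, GATA4, GATA6 and MSX1. No other DLX gene was among them, so DLX relatives are not described. The shares called were 0%, 25% and 0% in the 3 windows. The 1 call was GATA2 of endothelial and blood cells, which fell by 0.27 ± 0.09 over 24 to 72 h (limma, adjusted p = 0.0168). It was lost without exposed replicate 3 of 72 h. GATA4, GATA6 and MSX1 did not pass in any window.

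CITED2 is read with hypoxia and CBP/p300 genes, of which 16 of 26 were measured. The shares called were 12.5%, 43.8% and 62.5%. Over 1 to 4 h 1 rose and 1 fell. The vasodilator peptide ADM, a hypoxia-inducible gene, rose by 1.00 ± 0.15 (adjusted p = 1.13e-05) when CITED2 was 0.56 higher, and by 1.40 and 0.70 in the later windows, when CITED2 was 0.22 and 0.31 lower. Over 24 to 72 h 4 rose and 3 fell (1 rose against the sham arrays), with EPAS1, a hypoxia-inducible factor subunit, rising by 0.57 and EGLN1, the oxygen-sensing hydroxylase, falling by 0.87. Over 168 to 514 h 7 rose and 3 fell, with a median of 0.16 against 0.02 over all genes. The glucose transporter SLC2A1 rose by 1.05 while the vessel growth factor VEGFA fell by 0.60. Against the sham arrays 4 rose and 1 fell. CITED1, the relative of CITED2 with the same CBP/p300 binding, fell by 0.29 over 24 to 72 h and by 0.46 over 168 to 514 h, and had 0.28 over 1 to 4 h, where it did not pass.

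Of 18 measured epidermal transcription factors beyond these 5, 1 rose and 1 fell over 1 to 4 h, 2 rose and 7 fell over 24 to 72 h, and 3 rose and 3 fell over 168 to 514 h. The list medians were 0.02, -0.06 and -0.03, and the shares called 11.1%, 50% and 33.3%. The nuclear receptor RORA fell by 1.54 and then by 1.52, so that, unlike GATA3 and HOPX, it was as far below control in the last window as in the middle one. TFAP2C, an AP-2 factor of the epidermis, fell by 0.99 over 24 to 72 h and had 0.04 over 168 to 514 h. CEBPD rose by 0.43 and 1.10 in the first 2 windows, and KLF4, a barrier factor, fell by 0.37 and 0.42 in the last 2. POU2F3 was the 1 that fell over 1 to 4 h, by 0.30, and ELF3 rose by 0.38 over 168 to 514 h. The early counts ranged from 0 to 2 in each direction when single arrays were left out, the rises over 24 to 72 h from 1 to 4, and the late falls from 3 to 5.

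The genes whose levels ran closest to each regulator over the 63 arrays were named by Pearson's r, as a description over arrays that share exposure, time, period and muscle content. For HOPX these were SULT1E1, an estrogen sulfotransferase (0.96), CALML5 (0.95) and SERPINB7 (0.93), and within the 27 control arrays alone r was 0.86, 0.88 and 0.87. For GATA3 they were the ammonium transporter RHBG (0.94), ABHD12B (0.92) and the receptor kinase TYRO3 (0.91), with 0.92, 0.84 and 0.94 in control arrays. For HES1 they were HOPX (0.78), the clock output factor DBP (0.75) and the epithelial chemokine CCL28 (0.74). HES1 and HOPX had 0.88 in exposed and 0.44 in control arrays. For DLX5 they were RHOV (0.69), TMEM54 (0.67) and TMEM265 (0.63), and for CITED2 the chaperone gene DNAJB4 (0.76), the cell cycle inhibitor CDKN1B (0.75) and CHURC1 (0.74).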

How the data were processed

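RNA of 63 pig skin biopsies had been measured on Affymetrix Porcine Genome arrays, 1 array each. The authors deposited log2 signals for each probe set. The submitters' processing notes name RMA and Partek without versions. RMA shrinks changes of dim probe sets. Values were used as deposited. Leaving out 124 control probe sets of 24123 left 23999. The supplied annotation of the array listed 10267 of these, 10069 with 1 symbol and 198 with several, and 13732 were not listed and are unnamed here. Of 274 listed genes in 14 lists 146 were measured.

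One limma model (version 3.58.1, in R 4.3.3) held a mean for every group, with 36 residual degrees of freedom and 3.24 prior ones. Two-sided p values were adjusted over all 23999 probe sets by the Benjamini-Hochberg method, and 0.05 was the threshold. The fit treats arrays as independent, although exposed and control sites shared animals, and sham groups of 1 array are taken to vary like the others. Correlations used 100000 resamples and, within periods, every permutation (Python 3.11.15, scipy 1.17.1, numpy 2.4.6). A permutation test of closed against open lesions was planned and is not reported, since values of the exposed arrays had chosen the genes. The procedures were tested on simulated data. The rule for naming genes gave the 5 regulators and, in every list and window, the 3 called genes that changed most (the top gene if no gene was called). It also gave, for each regulator, the 3 genes with the highest r. Not every gene that the rule gave is named in the text. ID3 and SMAD1 over 1 to 4 h, KLF4 over 24 to 72 h, TFAP2C over 168 to 514 h, CITED1, GATA4 and GATA6 were added after their values were seen. The regulators, lists and rules were chosen with earlier results of these data known. Replicate numbers do not certainly mark animals: same-numbered exposed and control arrays had residuals with r over 0.1 in 21 of 27 pairs (mean r of 0.27), and for all 3 pairs at 5 of 9 times. Alternatives were quantile normalization again, the muscle score as a covariate, sham arrays as the control group, the replicate number as a block, all probe sets of a gene, each window's arrays alone, a filter on dim probe sets and leaving out each array. Promoter and protein sequences are not used here.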

Additional observations from a re-analysis of the deposited data

Results flagged for a closer look

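HES1, DLX5 and CITED2 each had times at which all 3 same-numbered pairs moved up and times at which all 3 moved down. HES1 was 0.77 higher at 2 h and 0.98 lower at 72 h, so the changes lay 1.75 apart. DLX5 was 1.03 higher at 4 h and 0.70 lower at 24 h, 1.73 apart. CITED2 was 0.79 higher at 1 h and 0.50 lower at 168 h, 1.29 apart. The differences between times were not tested, and these 3 genes were chosen for that pattern.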

How the results depend on the processing

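Exposed minus control differences of the 5 regulators over the 3 windows moved by less than 1 SD of the pairs in 360 of 360 alternative settings. Most of these settings left out 1 array, which can hardly move a window mean that far. The SD is also wide, at 1.28 for HOPX over 168 to 514 h beside a difference of -1.30, so the count shows little. Sham minus control differences of the regulators stayed without a call in 330 of 330. Leaving out single arrays moved HOPX over 1 to 4 h between -0.32 and -0.06. The number of probe sets called over 1 to 4 h, 1315, was 355 with the 3 sham arrays as the control group and 815 with the arrays of that window alone. Over 168 to 514 h, 5262 became 2633 with sham arrays, which are fewer. Without single arrays the counts were 978 to 1684, 7783 to 8438 and 4524 to 5361 in the 3 windows. The control-site F test gave an adjusted p of 0.0164 to 0.104 for CITED2 and 0.0497 to 0.277 for HES1. Of the 10 pairs of regulators in control sites 7 passed, 3 when centred on time and 0, 0 and 3 within the 3 periods of 9 arrays each. Closed minus open late lesions gave 0.94 to 1.14 for GATA3, 1.42 to 1.92 for HOPX, 0.65 to 0.86 for DLX5 and 0.34 to 0.70 for HES1 without single arrays. HES1 there had 0.58 with quantile normalization again. These lesion values are a description, whatever the setting.

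With the replicate number as a block, by pairing each exposed with its same-numbered control array, closed minus open differences were 1.39 for GATA3, 1.91 for HOPX, 0.58 for DLX5, 0.26 for HES1 and 0.13 for CITED2. The block moved T cell marker rises from 3 to 5 over 24 to 72 h and from 3 to 7 over 168 to 514 h. Signals on an array are relative to its other RNA, and 1 sham array a time bounds only large sham effects.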
